A study of Mus musculus with 24 samples.

Results

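The replication-dependent histone genes were taken as every gene symbol built as Hist1h to Hist4h followed by a histone class, which gave 68 of the 38019 symbols measured. They comprised 6 linker histone genes (H1) and 19 H2A, 18 H2B, 12 H3 and 13 H4 core histone genes. In the GENCODE M21 annotation (GRCm38), 55 of them lay on chromosome 13, 10 on chromosome 3, 2 on chromosome 11 and 1 on chromosome 6, with 30 of the 66 that could be tested on the minus strand and 36 on the plus strand. The rule reads symbols only and uses no measured value.

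Core histones pack DNA into nucleosomes, and linker histones bind the DNA between them. Dividing cells make most of their histones in S phase, when newly copied DNA has to be packed, and the genes counted here supply that demand, while replication-independent histone genes are transcribed through the cell cycle. Their mRNAs usually carry no intron and end without a poly(A) tail in a conserved stem-loop, which the stem-loop binding protein Slbp holds while U7 snRNP directs the cut behind it. The limb bud is a rapidly dividing tissue of mesenchyme under a surface ectoderm.

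The libraries were made from total RNA of forelimb buds (FL) and hindlimb buds (HL) of C57/Bl6 mouse embryos at E10.5 and E11.5. Both genotypes carried the floxed U11 allele on both chromosomes: WT means U11flx/flx::Prrx1-Cre-, and mutant means U11flx/flx::Prrx1-Cre+. U11 snRNA (gene Rnu11) belongs to the minor spliceosome, and Prrx1-Cre acts in limb bud mesenchyme, so other cells of the bud keep the gene. Each of the 8 groups of stage, limb and genotype held 3 libraries, 24 in all. The labels do not say which embryos or how many buds a library came from, so p-values measure the spread between libraries. In whole buds, fewer cells of a type and less RNA per cell cannot be told apart.

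The stem-loop is shown for 9 members because its sequence is what these mRNAs share across classes. It was searched as the histone stem-loop of 16 bases, on the strand of the transcript and with the outer 2 base pairs of the stem, its innermost T and A pair and the loop's row of T fixed, in GENCODE M21 transcripts and was found in 44 of the 68 members. Within the last 100 transcript bases, where the mature mRNA would end, it was in 22 of the 67 members with a protein-coding transcript (32.8%). Of 21901 protein-coding genes, 37 held it there (0.169%). These counts depend on where annotated transcripts end, so a member without the stem-loop here is not shown to lack it. Hist1h4k, annotated at 312 nt, was without it, and in Hist1h1d it lay 4884 nt before the transcript end. The most frequent form, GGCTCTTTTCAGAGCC, was held by 26 members. Each line gives the stem-loop in capitals with up to 5 bases on either side, 5′ to 3′, from the GENCODE M21 transcript.
Hist1h1e: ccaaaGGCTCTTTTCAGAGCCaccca
Hist1h2ap: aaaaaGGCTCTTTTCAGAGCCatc
Hist1h2ao: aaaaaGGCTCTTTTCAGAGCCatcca
Hist2h2ac: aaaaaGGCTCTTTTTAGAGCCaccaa
Hist1h2bb: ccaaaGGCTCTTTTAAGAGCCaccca
Hist1h3c: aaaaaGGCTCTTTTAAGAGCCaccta
Hist1h4d: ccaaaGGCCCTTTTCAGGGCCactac
Hist1h4b: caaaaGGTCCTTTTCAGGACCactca
Hist1h4i: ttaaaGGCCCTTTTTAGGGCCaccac
The 6 forms found differ in the base pairs of the stem and in the last base of the loop, where C, A or T was found. Hist1h4b carries the form with GGTCC and GGACC arms, which 2 members hold, both of them H4 genes.

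Promoters were compared in 61 members with a RefSeq promoter of 300 bases, 250 before and 50 after the start. The CCAAT box, read on both strands, was in 52 of them (85.2%, against 37.9% of 27025 promoters). All 49 promoters outside class H4 held it and 3 of the 12 H4 promoters did. The TATA motif TATAAA was in 57.4% of member promoters and 14.2% of all. ATTTGCAT, the octamer known from H2B promoters, was in 7 H2A and 6 H2B promoters and in none of the other members, with 1.75% of all promoters. AAACACA, the AC box of H1 promoters, was in 5 of 6 H1 promoters (83.3%, against 7.14% of all), and GGTCC, the core of an H4 element, in 11 of 12 H4 promoters (91.7%, against 45.4% of all). A match describes letters and is not evidence of binding. One promoter is shown for each of 4 classes, from RefSeq on GRCm38.p6, 5′ to 3′ on the strand of the gene. Capitals mark these motifs wherever they occur, on either strand: the CCAAT box, the TATA motif and the AC box in the H1 promoter, the CCAAT box in the H2B promoter, which holds no TATA motif or octamer in this window, the CCAAT box and the TATA motif in the H3 promoter, and the TATA motif and the H4 element core in the H4 promoter.
Hist1h1e, chr13:23622509-23622808, minus strand: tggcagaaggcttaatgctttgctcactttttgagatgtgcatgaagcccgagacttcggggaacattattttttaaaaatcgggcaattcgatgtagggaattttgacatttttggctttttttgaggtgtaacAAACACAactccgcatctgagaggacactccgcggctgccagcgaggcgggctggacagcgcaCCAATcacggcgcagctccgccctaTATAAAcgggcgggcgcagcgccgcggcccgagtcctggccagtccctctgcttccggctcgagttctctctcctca
Hist1h2bq, chr13:21810150-21810449, minus strand: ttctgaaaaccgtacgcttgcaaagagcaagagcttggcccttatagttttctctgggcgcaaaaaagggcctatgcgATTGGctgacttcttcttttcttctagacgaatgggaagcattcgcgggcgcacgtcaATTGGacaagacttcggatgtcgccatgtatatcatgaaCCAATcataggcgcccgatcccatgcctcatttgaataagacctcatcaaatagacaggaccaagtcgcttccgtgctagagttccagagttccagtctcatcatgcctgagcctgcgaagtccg
Hist1h3i, chr13:21783348-21783647, minus strand: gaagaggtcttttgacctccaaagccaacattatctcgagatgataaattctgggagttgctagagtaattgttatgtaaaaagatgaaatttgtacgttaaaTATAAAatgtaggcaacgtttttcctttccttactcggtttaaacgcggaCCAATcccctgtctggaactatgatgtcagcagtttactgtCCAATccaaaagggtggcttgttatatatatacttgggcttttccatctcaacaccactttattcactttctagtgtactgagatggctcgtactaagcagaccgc
Hist1h4d, chr13:23581318-23581617, plus strand: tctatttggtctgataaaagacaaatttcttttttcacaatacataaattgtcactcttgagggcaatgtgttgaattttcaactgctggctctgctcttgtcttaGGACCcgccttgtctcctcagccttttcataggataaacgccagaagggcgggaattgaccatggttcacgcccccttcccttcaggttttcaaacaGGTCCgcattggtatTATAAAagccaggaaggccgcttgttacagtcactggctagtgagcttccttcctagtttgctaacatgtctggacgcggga
Hist1h2bq is shown because the same 300 bases form the promoter of Hist1h2br at chr13:21833493-21833792 on the plus strand, a pair described with the stages. Along the genome, 12 pairs of an H2A and an H2B gene stood head to head, with starts 176 to 306 bases apart, so that such a pair shares its promoter region.

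Several facts of the libraries bear on every value here. Rnu11 checked the genotype labels: its mean level in mutant libraries was 36.7% of WT at E10.5 FL, 35.9% at E10.5 HL, 13.5% at E11.5 FL and 25.3% at E11.5 HL. At E10.5 FL it stood at 251, 687 and 1063 rescaled TPM in WT and 158, 94.2 and 482 in mutant libraries, where replicate 3 of the mutant exceeded replicate 1 of the WT, and in the other 3 pairs the groups did not overlap. The exact two-sided permutation p was 0.2 for E10.5 FL and 0.1 for the others, and 0.1 is the smallest that 3 against 3 can give. Structural RNA genes (ribosomal, small nuclear and nucleolar, mitochondrial ribosomal and transfer, and other small structural RNAs) took 59.5% to 83.1% of all TPM, the deposited unit, which shares a fixed total among all transcripts after correction for length, so deposited TPM of every other gene moves with that share. Levels are therefore given as rescaled TPM, in which the median of 3518 genes with at least 5 TPM everywhere was made equal in all libraries, and deposited values are given where they differ. Tbx5, a forelimb gene, reached at most 0.4 rescaled TPM in hindlimb libraries, while in forelimb libraries it was 1.8 to 10.1, with replicate 3 of the E10.5 FL mutant at the lowest value. That library also held the hindlimb genes Tbx4 at 1.7 and Pitx1 at 1.5 rescaled TPM and stood apart from the other forelimb libraries. Without it the median log2 change of the tested histone genes was 0.19 instead of 0.23 for mutant against WT at E10.5 FL, -0.355 instead of -0.364 for HL against FL in the E10.5 mutant, and -0.17 instead of -0.23 for E11.5 against E10.5 in mutant FL.

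The stages differed by genome strand over the whole table. For the genes used in rescaling, the median log2 level of minus-strand genes less that of plus-strand genes was -0.41 to -0.27 in the 12 E10.5 libraries and 0.22 to 0.53 in the 12 E11.5 libraries, without overlap. In WT forelimb, 86.2% of 5880 other minus-strand genes were higher at E11.5, against 24.5% of 5742 plus-strand genes. Within a stage the strands moved alike: between mutant and WT at E11.5 FL, 44% of minus-strand and 47.4% of plus-strand genes were above 0. Per the labels, 3 nt were cut from reads at E10.5, and nothing is stated on trimming at E11.5. Stage, trimming and this strand difference cannot be told apart. Stage results below are given by strand and also with the genes of each strand rescaled separately.

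Most histone genes were expressed far above the detection filter in limb buds, and the 3 highest mean levels belonged to H4 genes. TPM divide by transcript length, so ranks of genes and classes depend on the transcript models behind the values, which the sources do not give. In GENCODE M21 the longest transcript had 312 nt for Hist1h4k, 1138 nt for Hist1h4d and 7425 nt for Hist1h1d. Of the 68 members, 63 had at least 1 and 59 at least 5 rescaled TPM in all 24 libraries, and 54 averaged over 100. The 3 leading members of each class by mean level were Hist1h1a (805), Hist1h1e (769.6) and Hist1h1b (535) for H1. For H2A they were Hist1h2ap (586), Hist1h2ab (526) and Hist1h2ak (516). In class H2B, Hist1h2bb (1118), Hist2h2bb (1113) and Hist1h2bn (912) led. The H3 genes were led by Hist1h3i (934), Hist1h3c (671) and Hist1h3b (609), and the H4 genes by Hist1h4d (1802), Hist1h4c (1627) and Hist1h4k (1410.2). Of the 4 lowest means, 3 belonged to members known from the testis, and the other was that of Hist2h2be, an H2B gene that ranged from 0.633 to 1.53. Hist1h1t, the testis linker histone, ranged from 1.61 to 9.69 rescaled TPM. Hist1h2ba, the testis H2B, reached at most 1.68 and was listed at 0 in 3 libraries. Hist1h2aa, the testis H2A that lies head to head with it, reached at most 0.340 and was listed at 0 in 15. The last 2 stayed below the filter of 1 TPM in 3 libraries, so 66 members were tested. No member was listed at 0 in every library.

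Near-identical copies limit how far single members can be read. Of all 50-base words in a member's transcripts, the median member shared 49.6% with another gene, and 33 members shared more than 50%. The chromosome 3 genes Hist2h2aa2 and Hist2h3c1 shared 100%, Hist2h2aa1 89.4% and Hist2h3b 79.7%, so their values below are among the least certain. The class medians were 1.13% for H1, 67.6% for H2A, 46.9% for H2B, 62.0% for H3 and 39.5% for H4, so H1 values are the least divided among copies. Hist1h1e shared the most of the H1 genes, 32.0%, and overlaps Hist1h2be on its own strand. In the annotation 25 members overlap another gene, 22 of them one on the opposite strand. How reads with several matches were counted, and on which strand, is not given in the sources used here.

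The summed level of all 68 genes varied most among E10.5 libraries. In rescaled TPM, the 3 libraries of E10.5 FL summed to 42538, 24994 and 22656 in WT and 45231, 24182 and 34874 in mutant buds. Those of E10.5 HL summed to 15867, 32055 and 28270.0 in WT and 21188, 24142 and 34640.0 in mutant buds. In both limbs the genotypes overlapped at E10.5, and the highest library of each group exceeded the lowest by more than 1.5 times. At E11.5 the FL sums were 33878, 43679 and 37785 in WT and 26184, 29543 and 27412 in mutant buds, where all mutant libraries lay below all WT libraries. The E11.5 HL sums were 40736, 28461 and 31304 in WT and 36012, 35543 and 29263 in mutant buds and overlapped.

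The forelimb difference at E11.5 is a difference relative to other mRNAs. As mean ± SD of 3 libraries, the rescaled sum was 38448 ± 4934 in WT and 27713 ± 1699 in mutant FL. In deposited TPM the libraries were 30629, 30318 and 27624 in WT and 24299, 35609.7 and 33433 in mutant FL, which overlap, with means of 29523 and 31114. Structural RNA took 79.0, 81.8 and 81.6% of TPM in these WT libraries and 77.7, 72.8 and 72.2% in the mutants, so it was lower in every mutant library, and other genes were correspondingly higher on the deposited scale. Of protein-coding TPM alone, which leaves that share out, the histone genes took 17.7, 20.7 and 18.4% in WT and 13.5, 15.6 and 14.6% in mutant FL, again without overlap. Over all 24 libraries the histone genes were 8.93% to 21% of protein-coding TPM and 2.32% to 4.11% of all TPM.

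**Figure D1:**
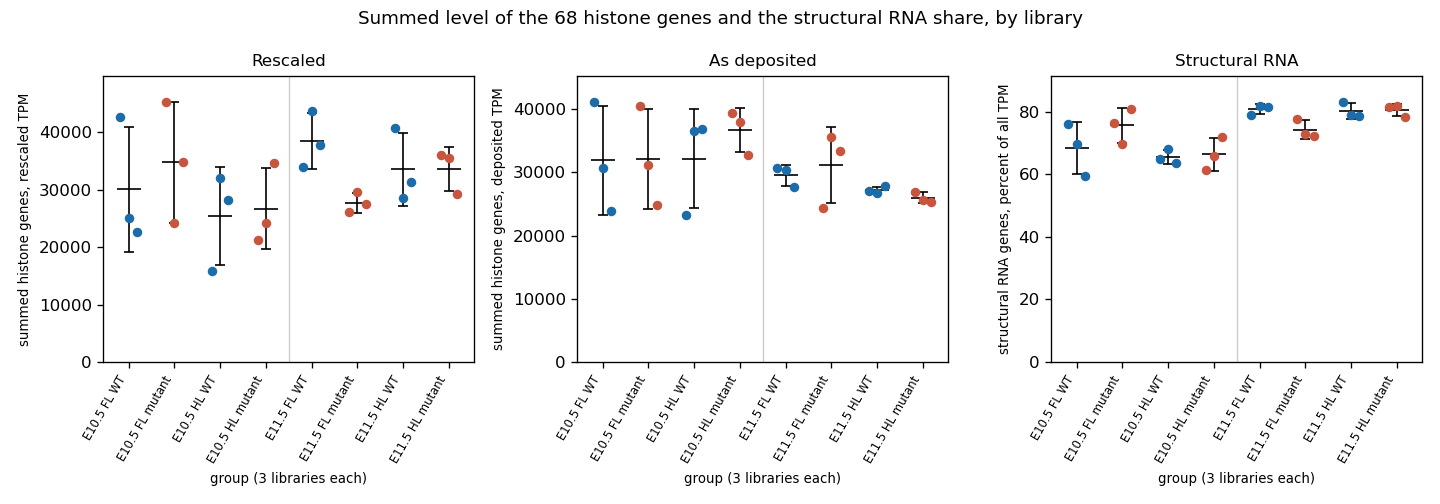
Summed level of the 68 histone genes in rescaled TPM (left) and deposited TPM (middle), and the percent of all TPM in structural RNA genes (right). Points are the 3 libraries of each group (blue WT, red mutant), bars the mean and SD; on the rescaled scale the E11.5 FL mutants (26184 to 29543) lie below the WT libraries (33879 to 43679), and on the deposited scale they overlap.

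All 5 classes took part in the lower rescaled sum of E11.5 mutant forelimbs. The H1 genes summed to 2786, 3774 and 3177 rescaled TPM in WT and 2226, 1982 and 2314 in mutant FL. For H2A the sums were 6964, 8552 and 7426 in WT and 4659, 6237 and 5316 in mutant FL. For H2B they were 7418, 9559 and 8720.5 and 6203, 6669.9 and 6119. In each of these classes every mutant library was below every WT library. The H3 sums were 5889.7, 8163 and 6449 in WT and 3944, 4886 and 4319 in mutant FL. Those of H4 were 10820.5, 13631 and 12013 and 9152, 9768 and 9344. H3 and H4 sums did not overlap between the genotypes either, and no p is given for sums over a chosen list.

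The proportions of the classes moved less than their sums. Like the levels, the size of each share depends on the transcript lengths used for TPM. Across the E10.5 libraries H4 genes took 26.1% to 34.3% of histone TPM, and across the E11.5 libraries 31.2% to 35.2%. The H3 share was 14.5% to 19.2% and 15.1% to 18.7% in that order of stages, and the H1 share 8.25% to 13.9% and 6.71% to 10.6%. H2A genes took 13.2% to 17% of the E10.5 sum and 13.7% to 21.3% of the E11.5 sum, with medians of 15.7% and 19.5%, and H2B genes 24.9% to 28.8% and 21.9% to 25.0%, with medians of 26.7% and 22.8%. Of the H2A genes 10 of 19 lie on the minus strand and of the H2B genes 6 of 18, so the strand difference between stages moves with these shares, and its part in them was not tested.

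**Figure D2:**
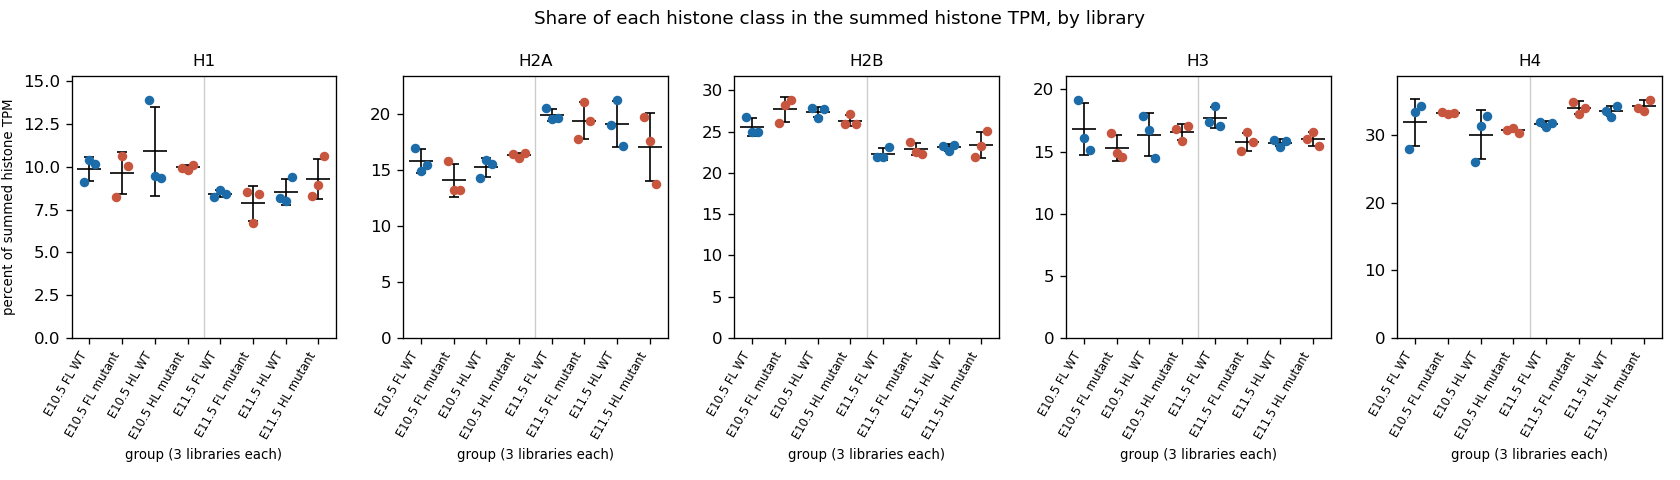
Percent of the summed histone TPM in each class, by group; points are libraries (blue WT, red mutant), bars the mean and SD of 3. H4 and H2B take the largest shares throughout, and the H2A share has a median of 15.7% at E10.5 and 19.5% at E11.5.

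Whether loss of U11 changes histone mRNA was asked gene by gene, mutant against WT, with limma across all genes. At E11.5 FL, 61 of 66 members had lower means in mutant buds and 5 had higher, and none passed an adjusted p of 0.05. The median log2 change was -0.44, against -0.03 over all 11398 genes tested, of which 1.66% passed (0.447% higher and 1.21% lower). At an unadjusted p under 0.05, 34 members were lower and 1 higher, that is 35 of 66 (53.0%), where 13.7% of all genes were lower and 9.05% higher. In 35 members (53.0%) all 3 mutant libraries lay below all 3 WT libraries, against 14.4% of all genes. Members varied together from library to library (median correlation 0.775 after group means were removed, described below). Counts of members here and below are therefore not counts of separate observations. By class the median log2 change was -0.50 for H1, -0.56 for H2A, -0.32 for H2B, -0.58 for H3 and -0.36 for H4, with 6 of 6, 16 of 18, 16 of 17, 11 of 12 and 12 of 13 members below 0. The minus-strand members had a median of -0.45 and the plus-strand members one of -0.44.

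Among the members with the smallest adjusted p, the linker histone genes Hist1h1e and Hist1h1c and the H3 gene Hist1h3c are shown, chosen after their values were seen. Hist1h1e stood at 909, 1152 and 994 rescaled TPM in WT and 623, 576 and 725 in mutant libraries. The mutant libraries were all below the WT libraries for this linker histone gene, with a log2 change of -0.67 ± 0.17 (SE, n = 3 per group, limma adjusted p = 0.0631). Hist1h1c stood at 244, 400.3 and 288 rescaled TPM in WT and 197, 152 and 158 in mutant libraries, again without overlap, with a log2 change of -0.85 ± 0.22 (limma adjusted p = 0.0673). Hist1h3c stood at 902, 1251 and 1087 rescaled TPM in WT and 589.7, 695 and 652 in mutant libraries, with a log2 change of -0.73 ± 0.20 (limma adjusted p = 0.0726). Hist1h3c encodes a core histone H3, and its groups did not overlap.

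The members with the largest differences downward were an H3 and an H2A gene. Hist1h3h stood at 315, 811 and 547 rescaled TPM in WT and 316, 245 and 180.0 in mutant libraries. WT libraries spread widely and the highest mutant library just exceeded the lowest WT library, at a log2 change of -1.11 ± 0.32 (limma adjusted p = 0.0850). Hist1h2ap stood at 907, 1122 and 1042 rescaled TPM in WT and 350.4, 568 and 719 in mutant libraries, without overlap, at -0.96 ± 0.27 (limma adjusted p = 0.0807). Its near-identical copy Hist1h2ao was among the largest differences in the other direction: 167, 101 and 85.5 in WT and 267, 228 and 95.5 in mutant libraries, which overlap, at 0.67 ± 0.54 (limma adjusted p = 0.482). Hist2h3c1, another H3 gene, stood at 1.27, 3.22 and 3.89 in WT and 24, 1.75 and 7.79 in mutant libraries, the largest difference upward, 1.23 ± 1.12 (limma adjusted p = 0.538), where only 1 mutant library lay far above the rest.

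Hist1h4i, an H4 gene, was the 1 member (1.52%, against 11.4% of all genes) in which all mutant libraries lay above all WT libraries at E11.5 FL. It stood at 88.9, 97.6 and 80.8 rescaled TPM in WT and 139, 127 and 130.0 in mutant libraries. The log2 change was 0.56 ± 0.19 with a limma adjusted p of 0.115 on the rescaled scale, and 1.08 with 0.00865 on the deposited scale. In the other comparisons its log2 change was 0.82 at E10.5 FL, 0.05 at E10.5 HL and 0.40 at E11.5 HL (limma adjusted p = 0.891, 1 and 0.750).

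Other leading members by level follow. Hist1h4d, with the highest mean of all, stood at 1438, 1822 and 1785 in WT and 1451, 1281 and 1291 in mutant libraries, a log2 change of -0.32 ± 0.16 (limma adjusted p = 0.25). Hist1h2bb stood at 1081, 1575 and 1251 rescaled TPM in WT and 888, 767 and 703 in mutant libraries, at -0.72 ± 0.23 (limma adjusted p = 0.104). Hist1h3i stood at 1472, 1944 and 1314 rescaled TPM in WT and 798, 1139 and 1038 in mutant libraries, at -0.66 ± 0.23 (limma adjusted p = 0.129). In these H2B and H3 genes the mutant libraries lay below the WT libraries, and in Hist1h4d the groups overlapped. Hist1h1a stood at 662, 851 and 859 rescaled TPM in WT and 618, 526 and 573 in mutant libraries, at -0.46 ± 0.18 (limma adjusted p = 0.156), without overlap. Deposited values put the log2 change of Hist1h4d at 0.20 and of Hist1h1a at 0.06, the opposite direction.

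Scale and single libraries decided whether any member passed at E11.5 FL. On the deposited scale the median log2 change of all genes was 0.39 and that of the members 0.07, with 38 above 0 and 28 below. The class medians there were 0.02 for H1, -0.06 for H2A, 0.20 for H2B, -0.05 for H3 and 0.16 for H4. On that scale 2 members passed, both higher, Hist1h4i and Hist2h2be, against 33.2% of all genes higher. On either scale the members thus sat lower than the median gene. Without replicate 1 of the WT, 5 members passed, all lower: Hist3h2a, Hist3h2ba, Hist1h3h, Hist1h3g and Hist1h1c (limma adjusted p from 0.0179 to 0.0463). In that fit 1.32% of all genes were called higher and 2.09% lower. Members with an unadjusted p under 0.05 in either direction, 35 of 66 above, were 13 (19.7%, against 15.5% of all genes) without replicate 2 of the WT and 22 (33.3%, against 18.2%) without replicate 3 of the mutant. In the fit of all 24 libraries they were 7 (10.6%, against 13.5%). With the strands rescaled separately, Hist1h1c (-0.85, limma adjusted p = 0.0485) and the H2A gene Hist3h2a (-0.66, 0.0489) passed, 2 of 66 against 2.93% of all genes.

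**Figure D3:**
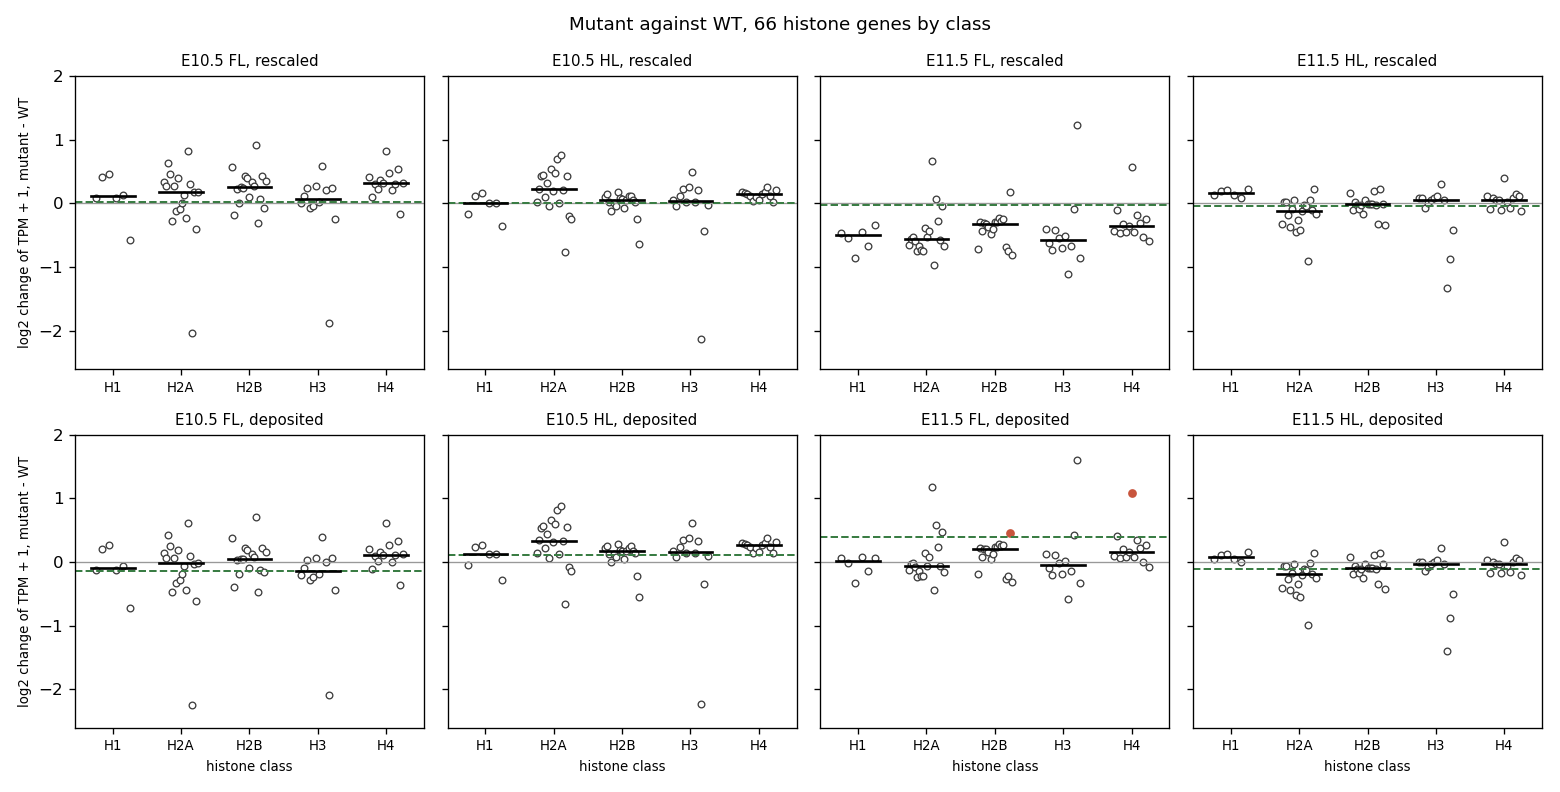
Log2 change of TPM + 1, mutant minus WT, for the 66 histone genes tested, by class, in each stage and limb, on the rescaled (top) and deposited (bottom) scales. Each point is a gene (red, adjusted p under 0.05), black bars are class medians and the dashed green line is the median of all genes; at E11.5 FL the class medians lie below that line on both scales.

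The other limbs and stages showed no such common direction downward. At E10.5 FL, 51 members were above 0 and 15 below in mutant buds, with a median log2 change of 0.23 (all genes 0.02). None passed in limma, against 0.0265% of all genes. At an unadjusted p under 0.05, 2 were higher and 1 lower, where 2.84% of all genes were higher and 2.32% lower. Without replicate 3 of the WT the median was -0.02, and on the deposited scale it was 0.03 with 37 above 0 and 29 below. Class medians were 0.11 for H1, 0.18 for H2A, 0.25 for H2B, 0.07 for H3 and 0.32 for H4. In 2 members (3.03%, against 4.81% of all genes) the mutant libraries lay wholly below WT, and in none wholly above (5.49% of all genes).

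Among members of some abundance, the largest differences at E10.5 FL were in genes that were unstable between libraries. Hist2h2aa2, an H2A gene, stood at 282, 405 and 247 in WT and 36.0, 103 and 106 in mutant libraries, without overlap, at -2.04 ± 0.72 (limma adjusted p = 0.891). Hist2h3b, an H3 gene, stood at 415, 166 and 221 and 157, 15.4 and 119, again without overlap, at -1.88 ± 1.70 (limma adjusted p = 0.946). The largest differences upward were Hist1h2bp, an H2B gene, at 0.91 ± 0.38 (limma adjusted p = 0.906) and Hist1h4i. Markers of red blood cells moved with this comparison: their summed level was 2041, 2882 and 2893 rescaled TPM in WT and 4506, 4513 and 5486 in mutant libraries, higher in every mutant library, with 10 of 10 tested markers above 0 and none past the threshold in limma. Of surface ectoderm markers 12 of 13 were above 0, with a median of 0.36 and none past the threshold. Their part in the histone values was not tested.

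At E10.5 HL, 51 members were above 0 and 15 below, with a median log2 change of 0.10 (all genes -0.00), and none passed in limma, against 0.00882% of all genes. None had an unadjusted p under 0.05 either, where 1.9% of all genes did. The median turned to -0.24 without replicate 1 of the WT and to -0.08 without replicate 3 of the mutant. The largest differences were Hist2h3b (-2.13) and Hist2h2aa2 (-0.77) downward, and the H2A genes Hist1h2ap (0.75) and Hist1h2an (0.70) upward, each with a limma adjusted p of 1. In 1 member (1.52%, against 3.29% of all genes) the mutant libraries lay wholly below WT. Hist2h3b was at 0.47 without replicate 2 of the mutant, and Hist1h2ap at -0.12 without replicate 1 of the WT. Class medians ran from 0.01 for H1 to 0.22 for H2A.

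At E11.5 HL the members divided evenly, 32 above 0 and 34 below, with a median of -0.00 (all genes -0.04). None passed in limma, against 0.0175% of all genes, and none had an unadjusted p under 0.05, against 6.19% of all genes. Class medians were 0.16 for H1, -0.11 for H2A, -0.01 for H2B, 0.05 for H3 and 0.06 for H4. The largest differences were Hist2h3b (-1.34) and Hist2h2aa1, an H2A gene (-0.90), downward and Hist1h4i (0.40) and Hist1h3h (0.31) upward, with limma adjusted p from 0.750 to 0.815. Hist1h1e stood at 1050.3, 719.9 and 932 in WT and 880.0, 1038 and 917 in mutant HL. These groups overlap, unlike those of the forelimb at this stage. Hist2h3b was at 0.13 and Hist2h2aa1 at 0.09 without replicate 3 of the mutant. Without replicate 1 of the WT the member median was 0.18, and without replicate 3 of the mutant it was 0.11. Deposited values put 19 members above 0 and 47 below. In 1 member (1.52%, against 8.52% of all genes) the mutant libraries lay wholly below WT.

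The forelimb difference at E11.5 was not shown to differ from the others by a test of the difference. In limma, no member passed for the mutant effect in HL less that in FL at E11.5, where the median was 0.44 with 60 members above 0, and the smallest adjusted p was 0.307, with 0.0175% of all genes past the threshold. There 17 members were higher at an unadjusted p under 0.05, against 5.98% of all genes. For E11.5 less E10.5 in FL the median was -0.62 with 58 below 0, and the smallest adjusted p was 0.243, with 0.066% of all genes past the threshold. There 10 members were lower at an unadjusted p under 0.05, against 8% of all genes. In deposited TPM these medians were -0.15 with 15 members above 0 and 0.11 with 36 above 0, while all genes moved by -0.50 and 0.50. For HL less FL at E10.5 the median was -0.11 and for E11.5 less E10.5 in HL it was -0.07, with 0% and 0.00825% of all genes past the adjusted threshold. No member had an unadjusted p under 0.05 in either, where 2.51% and 2.53% of all genes did. The former turned to between 0.01 and 0.17 without replicate 2 or 3 of the FL WT, replicate 2 or 3 of the HL WT, or replicate 1 of either mutant, and the latter to between 0.02 and 0.22 without replicate 1 of the HL WT or replicate 3 of the HL mutant of either stage. These differences share their groups with the comparisons above.

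Forelimb and hindlimb buds of each genotype and stage were compared, and in limma no member passed in any of the 4 comparisons on the rescaled scale. In WT the median log2 change was -0.20 at E10.5 with 54 of 66 below 0, and -0.21 at E11.5 with 61 below, while all genes were at 0.00 and -0.01. Of all genes, 0.124% and 0.149% passed the adjusted threshold. At an unadjusted p under 0.05, 2 and 4 members were lower, against 5.07% and 4.3% of all genes. In 3 members (4.55%, against 6.01% of all genes) at E10.5 and 1 (1.52%, against 7.47%) at E11.5, every HL library lay below every FL library. The E10.5 median turned to 0.03 without replicate 1 of the FL WT and to 0.06 without replicate 1 of the HL WT, and on the deposited scale 36 members were above 0 at E10.5 and 14 at E11.5. In mutant buds the median was -0.36 at E10.5 with 60 below 0, and 0.19 at E11.5 with 53 above 0, while 0.0618% and 0.377% of all genes passed the adjusted threshold. At an unadjusted p under 0.05, 4 members were lower at E10.5, against 4.19% of all genes, and 12 were higher at E11.5, against 6.36%.

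The E11.5 mutant was the 1 comparison of limbs in which many members separated. In 21 members (31.8%, against 8.97% of all genes) every HL library lay above every FL library. Hist1h1e stood at 623, 576 and 725 rescaled TPM in FL and 880.0, 1038 and 917 in HL, without overlap, at 0.56 ± 0.17 (limma adjusted p = 0.173). This FL group also enters the comparison with WT, so both comparisons rest on those 3 libraries. On the deposited scale the direction was opposite, with a median of -0.30 (all genes -0.44) and 59 members below 0. There 5 members passed as lower in HL, Hist1h2ao, Hist2h2be, Hist3h2ba, Hist1h4i and Hist1h4k, with 45.9% of all genes. On that scale the E10.5 mutant had a median of 0.20 with 55 members above 0, against 0.45 for all genes.

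Markers of other cells moved with both limb comparisons of mutant buds. At E10.5 the erythroid markers summed to 4506, 4513 and 5486 rescaled TPM in FL and 2833, 1908 and 2314 in HL, with 10 of 10 tested markers below 0, a median log2 change of -0.88 and none called. The endothelial sums were 45.4, 48.8 and 45.8 in FL and 83.8, 69.6 and 55.2 in HL, with 12 of 12 above 0 and none called, and the myogenic sums 12.3, 11.4 and 12.7 and 5.01, 4.74 and 5.74, with 4 of 4 below 0 and none called. At E11.5 the surface ectoderm markers summed to 90.7, 81.7 and 84.8 in FL and 113, 112 and 133 in HL, with 12 of 14 above 0 and none called. The myogenic sums there were 25.3, 23.3 and 17.3 and 10.8, 11.6 and 9.87, with 7 of 7 below 0 and 1 called lower, Lbx1. None of these sums overlapped between the limbs, and their part in the histone values was not tested. The sums of WT buds are not given here. At E10.5 no gene passed in limma for the mutant effect in HL less that in FL. The marker differences at E10.5 are therefore not shown to be particular to mutant buds.

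Between stages, most minus-strand members had higher means at E11.5, namely 28 of 30 in WT FL, 24 in mutant FL, and 29 in each genotype of HL. Of the 36 plus-strand members, 13 had higher means in WT FL, 3 in mutant FL, 15 in WT HL and 13 in mutant HL. Among the other genes tested in WT FL, 86.2% on the minus strand and 24.5% on the plus strand had higher means. On the rescaled scale limma called 15 members higher and 3 lower at E11.5 in WT FL, against 23.3% and 16.8% of all genes. It called 19 and 3 in WT HL (23.8% and 18.2% of all genes), 3 and 17 in mutant FL (18.7% and 17.6%), and 15 and 3 in mutant HL (18.5% and 17.8%). In WT FL all 15 called higher were among the 30 minus-strand members and all 3 called lower among the 36 plus-strand members. Of the other genes, 43.1% of those on the minus strand were called higher and 32.7% of those on the plus strand lower. In mutant FL the 3 called higher were on the minus strand and the 17 called lower on the plus strand. In HL 1 plus-strand member was called higher in each genotype and no minus-strand member lower.

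Set against other genes of their own strand, histone genes had higher medians at E11.5 in WT buds and mutant hindlimbs, and not in mutant forelimbs. In WT FL the median log2 change was 0.87 for minus-strand members and 0.35 for other minus-strand genes, and -0.08 and -0.24 on the plus strand. In WT HL these medians were 1.06 and 0.33 on the minus strand and -0.11 and -0.25 on the plus strand. In mutant HL they were 0.95 and 0.29, and -0.17 and -0.28. In mutant FL they were 0.27 and 0.29 on the minus strand and -0.77 and -0.26 on the plus strand. With the strands rescaled separately, 58 of 66 members were above 0 in WT FL, 57 in WT HL and 53 in mutant HL, and 20 in mutant FL. The medians were then 0.41, 0.44, 0.40 and -0.19, against 0.09, 0.08, 0.04 and 0.05 for all genes. These 4 comparisons are described side by side. The difference between genotypes within each limb is the one tested above, in which no member passed. The difference in stage change between forelimbs and hindlimbs was not tested.

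Few members passed once the strands were rescaled separately. Limma then called 5 higher and 2 lower in WT FL (9.26% and 5.06% of all genes), 9 and 2 in WT HL (13% and 6.98%), 2 and 2 in mutant FL (6.32% and 4.21%), and 6 and 2 in mutant HL (7.23% and 5.56%). Hist3h2a, on the plus strand, was called higher in WT FL (0.87, adjusted p = 0.0370), WT HL (1.17, 0.00558) and mutant HL (1.21, 0.00636) on that scale. In WT HL it stood at 12.1, 16.4 and 18.3 at E10.5 and 31.1, 22.9 and 27.0 at E11.5 rescaled TPM, without overlap. In the annotation Hist3h2a overlaps Trim17 on its own strand, with which it shares 31.5% of its 50-base words, and Gm44313 on the opposite strand. Hist1h2bf, an H2B gene on the minus strand, was called higher in WT HL (1.05, 0.00889) and mutant HL (1.13, 0.00759). It stood at 118, 284 and 259.6 at E10.5 and 577, 481 and 531 at E11.5 in WT HL, again apart. Hist2h2aa2 stood at 112, 23.8 and 92.3 at E10.5 and 1059, 999.7 and 209 at E11.5 in WT HL, a rescaled log2 change of 3.25 ± 0.73 (limma adjusted p = 0.00186). The stages did not overlap, but libraries differed widely within both. Hist2h2aa2 shares 100% of its 50-base words with other genes and overlaps genes on the opposite strand, so its single values are uncertain.

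Other members named by their rescaled calls fell on the strand that moved their way. Hist1h2ah, an H2A gene on the minus strand, rose by 2.30 ± 0.53 on the log2 scale in WT FL (limma adjusted p = 0.00269) and by 1.69 ± 0.53 in mutant FL (0.0191). With the strands rescaled separately the WT call held (1.97, limma adjusted p = 0.0192) and the mutant call was lost (1.38, 0.101). The mutant call was also lost without replicate 2 or 3 of the E10.5 group or replicate 2 of the E11.5 group. Hist1h2ah shares 87.4% of its 50-base words with Hist1h2ad, another H2A gene. Hist1h1a, on the plus strand, was at -0.87 ± 0.23 in mutant FL (limma adjusted p = 0.00724), and at -0.44 with 0.191 once the strands were rescaled separately.

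**Figure D4:**
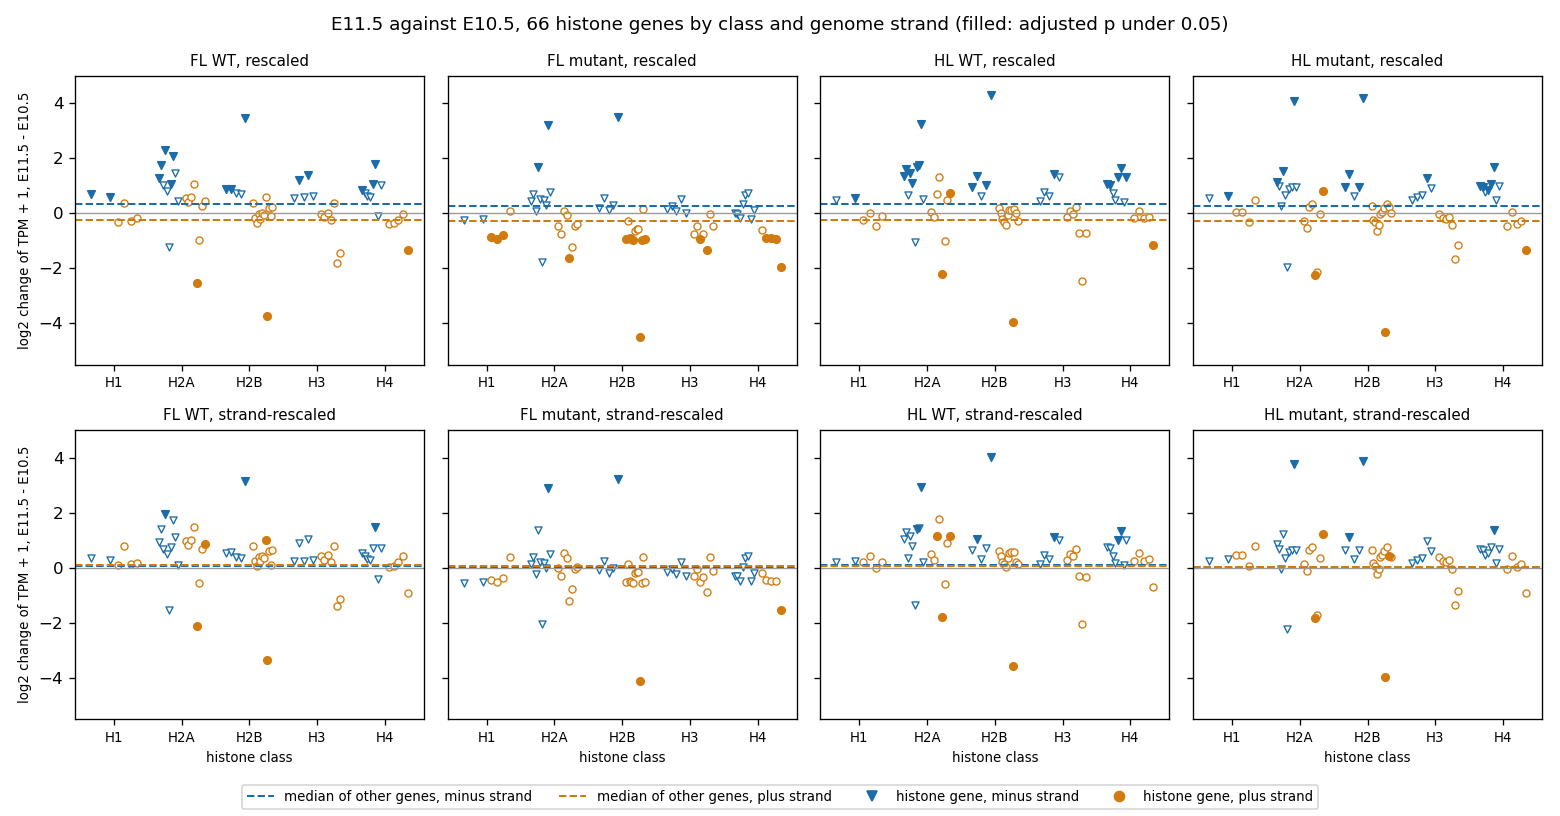
Log2 change of TPM + 1, E11.5 minus E10.5, for the 66 histone genes tested, by class, with all genes on 1 rescaling (top) and with each strand rescaled separately (bottom). Blue triangles are minus-strand and orange circles plus-strand genes, filled where the adjusted p is under 0.05; dashed lines are the medians of other genes of that strand, which in WT FL are 0.35 and -0.24 above and close to 0 below.

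Single libraries moved the counts of stage calls. In WT FL the 18 calls became 28 without replicate 1 of E10.5 and 10 without its replicate 2. They became 9 without its replicate 3 and 11 without replicate 2 of E11.5. In each of these fits 3 of the calls were lower. In mutant FL the 20 calls, 3 higher and 17 lower, became 7 (3 and 4) without replicate 1 of E10.5. Without its replicate 3 they were 10 (2 and 8). Without replicate 2 of E11.5 they were 12 (2 and 10), and without its replicate 3 they were 7 (3 and 4). In WT HL the 22 calls became 14 without replicate 1 of either stage. Of these 14, 5 were lower without that of E10.5 and 3 without that of E11.5. In mutant HL the 18 calls became 8 without replicate 1 and 10 without replicate 2 of E10.5, and 9 without replicate 2 of E11.5. In that order 3, 4 and 3 of them were lower. The share of all genes called in these fits is not given here. A change particular to the members therefore cannot be told from a change over all genes. From deposited TPM the calls were 7 higher and 8 lower in WT FL (1.8% and 20.2% of all genes), 4 and 5 in mutant FL (6.61% and 1.61%), 6 and 17 in WT HL (2.18% and 32.3%), and 3 and 27 in mutant HL (1.36% and 49.5%). Members called in the same direction on the rescaled and the deposited scale numbered 7 higher and 3 lower in WT FL and 3 and 5 in mutant FL. They numbered 6 and 3 in WT HL and 3 and 3 in mutant HL. The share of all genes called on both scales together is not given either.

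In each stage comparison on the rescaled scale, Hist1h2bq had the largest rise and Hist1h2br the largest fall among the members. Both lie in an inverted duplication on chromosome 13, whose 6 genes form 3 near-identical pairs on opposite strands. In order along GRCm38 they are Hist1h2bq (chr13:21806612-21810197, minus), Hist1h2ao (chr13:21810465-21810944, plus), Hist1h4m (chr13:21811746-21812147, plus), Hist1h4n (chr13:21831767-21832196, minus), Hist1h2ap (chr13:21833026-21833507, minus) and Hist1h2br (chr13:21833743-21837530, plus). The H2B gene Hist1h2bq shares 97.3% of its 50-base words with Hist1h2br, and their promoters, one of them printed above, are identical over 300 bases. The promoters of the H4 genes Hist1h4n and Hist1h4m are identical at 298 of 299 bases.

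Within each pair the minus-strand gene had the higher change from E10.5 to E11.5. Hist1h2bq stood at 30.5, 3.70 and 3.67 at E10.5 and 104, 97.5 and 88.6 at E11.5 rescaled TPM in WT FL, without overlap, a log2 change of 3.46 ± 0.47 (limma adjusted p = 4.54e-05). Hist1h2br stood at 79.0, 73.8 and 89.6 at E10.5 and 2.09, 5.51 and 10.3 at E11.5, also without overlap and in the opposite direction, at -3.74 ± 0.40 (limma adjusted p = 4.6e-06). The same held in WT HL, at 4.32 and -3.95, in mutant FL, at 3.51 and -4.50, and in mutant HL, at 4.18 and -4.33. Both also passed in all 4 comparisons with the strands rescaled separately, at 3.16 and -3.36 in WT FL.

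The sums of the pairs differed far less between stages than their members. For Hist1h2bq and Hist1h2br together, the 12 E10.5 libraries ran from 46.9 to 115 (median 93.0) and the 12 E11.5 libraries from 65.5 to 115 (median 97.2) rescaled TPM. For the H2A pair Hist1h2ap and Hist1h2ao the medians were 852 and 900.4, and for the H4 pair Hist1h4n and Hist1h4m 1413 and 1954. The ranges of each sum overlap between the stages. In WT FL Hist1h4n rose by 1.82 ± 0.42 on the log2 scale and Hist1h4m fell by 1.33 ± 0.31 (limma adjusted p = 0.00259 and 0.00287). Hist1h2ao fell by 2.53 ± 0.48 there (6.13e-04), and Hist1h2ao, Hist1h2br and Hist1h4m were called lower in all 4 stage comparisons. In all 6 of the 10 reciprocal best pairs that lie on opposite strands, the minus-strand member had the higher change in each of the 4 comparisons. Reads from near-identical copies cannot be assigned with certainty, so single values in these pairs are uncertain.

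**Figure D5:**
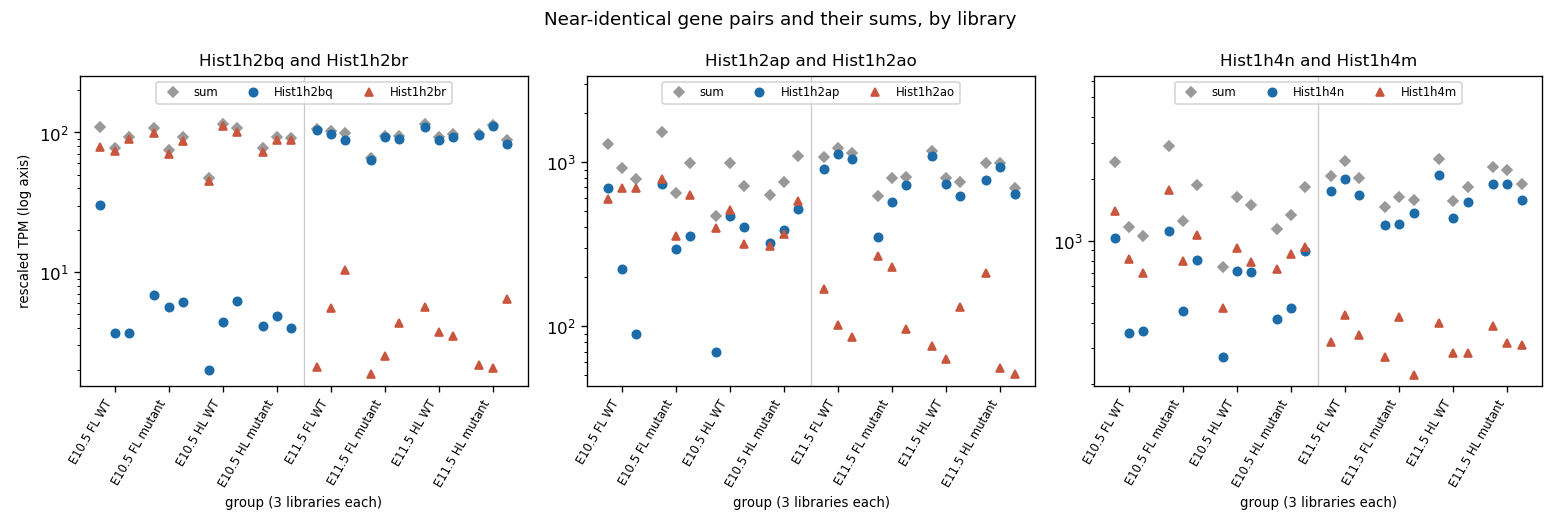
Rescaled TPM (log axis) of the 3 near-identical pairs of the inverted duplication in all 24 libraries, with their sums in grey; blue circles are the minus-strand and red triangles the plus-strand member, and the grey line divides E10.5 from E11.5. Hist1h2br is at 45.0 to 111 in E10.5 libraries and 1.88 to 10.3 in E11.5 libraries, while the sum stays between 46.9 and 115.

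The genes that make, bind and cut histone mRNA did not separate the genotypes. Of 22 tested genes of histone transcription and 3′ processing, none passed in limma for mutant against WT at E11.5 FL on the rescaled scale, and likewise none of those tested in the other limbs and stages, with 2, 1, 0 and 0 genes at an unadjusted p under 0.05 at E11.5 FL, E11.5 HL, E10.5 FL and E10.5 HL. At E11.5 FL their median log2 change was 0.07. At an unadjusted p under 0.05, 9.05% of all genes were higher and 13.7% lower at E11.5 FL, and 6.19% either way at E11.5 HL. For E10.5 these shares were 2.84% higher and 2.32% lower in FL, and 1.9% either way in HL. Slbp, the stem-loop binding protein, stood at 41.6, 37.4 and 39.9 rescaled TPM in WT and 32.5, 34.8 and 41.5 in mutant FL at E11.5. Srrt, which links the mRNA cap to 3′ processing, stood at 34.9, 33.0 and 33.2 and 31.6, 37.4 and 38.3. Both overlapped between the genotypes. Rnu7, the RNA of U7 snRNP, was listed at 0 in all 24 libraries.

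Replication-independent histones, chaperones and cell cycle genes gave no limma calls for mutant against WT on the rescaled scale either. At E11.5 FL the median log2 change was -0.17 over 11 replication-independent histone genes, 0.05 over 15 histone chaperones, -0.03 over 22 genes of S phase DNA synthesis and -0.09 over 20 G2/M genes, against -0.44 over the replication-dependent members. At an unadjusted p under 0.05 these lists held 0 higher and 2 lower, 3 and 0, 1 and 5, and 2 and 5 genes. Of all genes, 9.05% were higher and 13.7% lower at that p. H3f3a, a replication-independent H3, stood at 397, 521 and 493 in WT and 404, 342 and 386 in mutant FL, and H2afz, the H2A variant of promoters, at 131, 202 and 155 and 158, 111 and 137. Nasp, a chaperone of free histones, stood at 199, 184 and 193 and 146, 155 and 195. Rbbp4, a subunit of the chromatin assembly complex, stood at 79.1, 91.9 and 81.9 and 70.1, 76.7 and 78.3. Of these 4 genes, Rbbp4 was lower in every mutant library and the others overlapped.

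Genes of S phase and of mitosis were also summed. The 22 S phase genes summed to 633, 652 and 622 rescaled TPM in WT and 561, 546 and 629 in mutant FL at E11.5, and the 20 G2/M genes to 830.3, 721 and 778 and 687, 719.8 and 759. In both lists the groups overlap. Pcna, the DNA polymerase clamp, stood at 176, 208 and 179.6 in WT and 151, 132 and 167 in mutant FL, and Top2a, the topoisomerase of dividing cells, at 212, 171 and 208 and 154, 175 and 179. Pcna was lower in every mutant library, and Top2a overlapped. On the deposited scale at E11.5 FL, 33.2% of all genes were called higher and 0.377% lower. There 12 processing genes, 3 replication-independent histone genes and 7 chaperones were called higher, of 22, 11 and 15 tested on the rescaled scale. Of the 22 S phase and 20 G2/M genes, 6 and 6 were called higher. None in these lists was called lower, and 2 of 66 replication-dependent members were called higher. With the strands rescaled separately, the replication-independent linker histone gene H1f0 and the G2/M gene Nusap1, a spindle protein, were called lower. On that scale 1.96% of all genes were called lower.

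Markers of other cells were compared at E11.5 FL, beside the histone sums. The erythroid markers summed to 2402, 4649 and 5026 rescaled TPM in WT and 3824, 3453 and 3151 in mutant FL, which overlap. None of the erythroid, ectoderm, endothelial, myeloid or neural markers passed in limma there, and 1 of 7 myogenic markers was called higher, Lbx1, a gene of migrating muscle precursors (0.57 ± 0.10, limma adjusted p = 0.0200). The limb mesenchyme gene Prrx1 stood at 65.4, 51.8 and 50.7 in WT and 58.6, 46.4 and 52.3 in mutant FL. Its groups overlapped. Myeloid markers were above 0 in 7 of 7 genes (median 0.41), endothelial in 11 of 12 (0.25), erythroid in 6 of 9 (0.19) and surface ectoderm in 5 of 14 (-0.11). At an unadjusted p under 0.05, 4 of 7 myogenic, 3 of 7 myeloid and 2 of 12 endothelial markers were higher. Of the erythroid markers 2 of 9 were higher, of the neural 1 of 3 and of the ectoderm none. None of these lists held a marker that was lower. Of all genes, 9.05% were higher and 13.7% lower at that p. The endothelial sum was 30.0, 29.8 and 34.8 in WT and 36.4, 44.6 and 37.9 in mutant FL, and the ectoderm sum 92.7, 93.1 and 117 and 90.7, 81.7 and 84.8, neither with overlap. The part of cell content in the histone values was not tested.

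Members varied together from library to library. After the group means were removed, the median correlation among the 59 members with at least 5 rescaled TPM everywhere was 0.775 over 24 libraries (from -0.576 to 0.977), and among 3459 other genes of that level it was 0.007. The members share reads between copies and the scale of each library, so these values only describe how the 24 libraries vary. Of the E10.5 FL WT libraries, replicate 1 had the highest histone sum and the most symbols listed at 0 (21886), while replicate 1 of the E10.5 HL WT had the lowest histone sum of its group and 21380 symbols at 0. The other libraries had 11717 to 18764.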

How the data were processed

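Total RNA of 24 limb bud libraries was prepared with a stranded total RNA kit and sequenced, per the labels. The authors deposited TPM per gene symbol for each library. HISAT2 and the mm10 build are named in the submitters' processing notes, and the sources used here give no quantifier, strand setting or gene annotation. Reads of E10.5 libraries had 3 nt trimmed from the 3′ end, per the labels. TPM sum to 1000000 in every library and keep no depth, so depth is unknown and no counting interval is given.

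Symbols were matched to GENCODE M21 (36217 of 38019), and promoters came from RefSeq. TPM were multiplied by 1 factor per library to equalise the median log2 of 3518 genes at or above 5 TPM throughout. Values were tested as log2(TPM + 1), which understates the change of low genes, after dropping genes that reached 1 TPM in fewer than 3 libraries. Limma 3.58.1 in R 4.3.3 (with the mean trend) was fitted over the 12 libraries of a stage, with 8 residual degrees of freedom, or over all 24 for comparisons of stages, with 16. P-values were adjusted by Benjamini-Hochberg over all genes tested, with a threshold of 0.05. Rnu11 was compared by a two-sided exact permutation test. The fit was tested on simulated data. Python 3.11.15 with pandas 2.3.3, numpy 2.4.6, scipy 1.17.1 and matplotlib 3.10.9 was used for the rest.

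The histone genes, the 12 other gene lists and the tests were chosen with earlier results of these data known. Members were named as the top 3 per class by mean level, up to 3 called in each direction per comparison, and the 2 largest differences each way between mutant and WT among members with at least 5 TPM on average in the higher group. From each other list the called genes, or the 2 with the highest mean, could be named. Genes outside this rule were chosen after their values were seen: Hist1h1c, Hist1h3c and Hist3h2a, the members called only under other settings, Hist1h1t, Hist1h2aa and Hist1h2ba for their low levels, and the named genes of the inverted duplication.

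Replicate numbers are shared between groups. Same-numbered E10.5 mutant FL and HL libraries deviated together (residual correlations 0.204, 0.352 and 0.522), so the numbers pair these libraries by the data and not by the labels, and in no other pair of groups were all 3 correlations above 0.1. Alternatives were deposited TPM, rescaling by the 75th percentile, a pseudocount of 0.1, no filter, only the compared libraries, all 24 libraries in one fit, a replicate block, and each library left out. Chosen after seeing the data were a common protein-coding total without the histone genes, rescaling per stage and rescaling by genome strand.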

Additional observations from a re-analysis of the deposited data

How the results depend on the processing

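The choice of scale moved more results than any other alternative. On the deposited scale the median log2 change of the members was 0.072 for mutant against WT at E11.5 FL, 0.20 and -0.30 for HL against FL in the E10.5 and E11.5 mutants, -0.15 for the mutant effect in HL less FL at E11.5 and 0.11 for that at E11.5 less E10.5 in FL. For E11.5 against E10.5 it was -0.051 in WT FL, -0.29 in WT HL and -0.55 in mutant HL. Members called on that scale were 2 for mutant against WT at E11.5 FL, 5 for HL against FL in the E11.5 mutant, and 9 and 30 between stages in mutant FL and mutant HL. Mean deposited sums were 36701 for the E10.5 HL mutant, 29523 for E11.5 FL WT, 31114 for the E11.5 FL mutant and 25974 for the E11.5 HL mutant. At E11.5 FL, Hist1h1a was at 0.065 and Hist1h4d at 0.20 on the deposited scale.

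Rescaling by genome strand called 2 members for mutant against WT at E11.5 FL, and 7, 4, 11 and 8 between stages in WT FL, mutant FL, WT HL and mutant HL. Without the filter 9 were called between stages in mutant FL, and without replicate 3 of the E10.5 FL mutant and replicate 1 of the E10.5 FL WT together 28 in WT FL. With single libraries left out, calls between stages ranged from 9 to 28 in WT FL, 7 to 22 in mutant FL, 14 to 26 in WT HL and 8 to 22 in mutant HL, and calls for mutant against WT at E11.5 FL from 0 to 5. The median for HL against FL in the E11.5 mutant ranged from 0.14 to 0.32. In the same way the mutant change of Hist1h2ap at E10.5 HL ranged from -0.12 to 1.25, that of Hist2h3b from -3.47 to 0.47 at E10.5 HL and from -3.06 to 0.13 at E11.5 HL, and that of Hist2h2aa1 at E11.5 HL from -1.90 to 0.085. The cause of these shifts was not tested. The replicate block called 17, 18, 22 and 18 members between stages and 0 in every other comparison. It so moved no count of calls by over 1.5 times. For the fits without the filter, without single or paired libraries and with the block, the share of all genes called between stages is not given. Of the alternatives for counts of calls, medians of all members and their summed levels, 520 moved by less than the spread between libraries or, for counts, by at most 1.5 times. Another 34 moved by more than that, and 4 counts of calls went from 0 to above 0. The unknown depth limits what can be said of members near 1 TPM.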
